A study of Saccharomyces cerevisiae with 6 samples.

Results

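The genes described here code for the enzymes that make and use glutamate, glutamine and gamma-aminobutyrate (GABA) in Saccharomyces cerevisiae, together with the activator of the GABA genes. They are GDH1, GDH3, GLT1, GLN1, GDH2, GAD1, UGA1, UGA2 and UGA3. A gene was taken where a probe set of the array was annotated with that gene alone, and each of the 9 had 1 such probe set, out of 5449 yeast genes measured. Messenger RNA was compared between 3 arrays of a GCR2 deletion strain and 3 arrays of the wild-type strain FY4, a prototrophic laboratory yeast of the S288C lineage. GCR2 codes for a co-activator of glycolytic gene transcription, and the comparison asks which transcripts differ when it is missing. Cells of both groups grew exponentially in shaken batch culture at 30 °C in minimal medium with glucose. The labels give no strain name for the deletion samples and do not say whether arrays of a group came from separate cultures. The p-values therefore measure the spread between these arrays, which may be technical.

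Yeast fixes ammonium into carbon skeletons through glutamate and glutamine, which donate nearly all the nitrogen of the cell. NADPH-dependent glutamate dehydrogenase joins ammonium to 2-oxoglutarate, a product of the tricarboxylic acid cycle, and glutamine synthetase adds a further ammonium to glutamate. Glutamate synthase returns the amide nitrogen of glutamine to 2-oxoglutarate, and an NAD-dependent dehydrogenase breaks glutamate down again. A side route decarboxylates glutamate to GABA, which is converted through succinate semialdehyde to succinate, and GABA can also be taken up as a nitrogen source.

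GCR2 itself lay under background on all 3 deletion arrays and was at least 27.5-fold lower there than in wild-type (limma adjusted p = 1.01e-06). All 9 genes lay above background on all 6 arrays; background is the 95th percentile of probe sets for another yeast species on the same array. Poly-A control transcripts, added to the RNA, read 0.88 lower on the log2 scale on deletion arrays, and the 18S ribosomal RNA controls 1.15 lower. Centring arrays on the poly-A controls raises the change of every gene by 0.88, so each change below is relative to the other genes of the array, and a fall of less than that amount turns to a rise on the poly-A scale. The difference between the 3′ and 5′ probe sets of ACT1, a sign of RNA integrity, was 0.21 ± 0.03 on deletion arrays and 0.20 ± 0.02 on wild-type arrays (log2, SD, n = 3 each). For WBP1 it was 0.78 ± 0.03 on deletion arrays and 0.69 ± 0.03 on wild-type arrays, without overlap, and for SPT15 0.82 ± 0.07 on deletion arrays and 0.89 ± 0.05 on wild-type arrays, with overlap. The part of the control transcripts and of these differences in the results was not tested.

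Of the 9 genes, 3 rose in the deletion, 0 fell and 6 did not pass the test. At an unadjusted p under 0.05 in limma 4 of them differed, each higher in the deletion, and 38.4% of all genes did. The threshold was an adjusted p of 0.05 in limma, with adjustment over the whole table, and each change is the deletion mean minus the wild-type mean on the log2 scale. GDH3, GAD1 and UGA1 rose by 0.52, 0.45 and 0.43, or 1.43-fold, 1.36-fold and 1.35-fold. Of all genes 22.5% were called, 14.1% higher and 8.35% lower, against 33.3% of the 9. The deletion and wild-type arrays did not overlap for 5 of the 9 genes, each higher in the deletion, while 45.2% of all genes had groups that did not overlap. The median change was 0.08 over the 9 genes and 0.02 over all genes; the median size of a change, without its sign, was 0.09 and 0.13. No gene of the 9 changed by 2-fold.

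**Figure D1:**
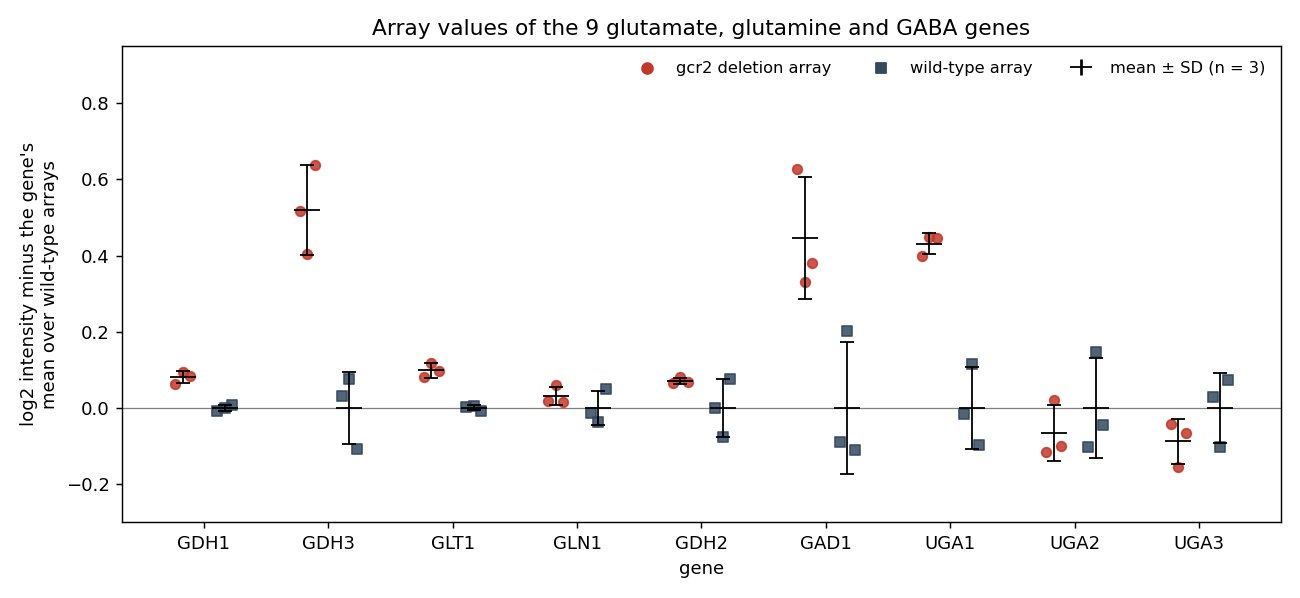
Log2 intensity of each gene on each array, minus that gene's mean over the wild-type arrays (vertical axis), for the 9 genes (horizontal axis). Circles are gcr2 deletion arrays, squares wild-type arrays, and bars the mean ± SD of 3 arrays. The deletion arrays stand clear of the wild-type arrays for GDH3 and UGA1. For GAD1 the gap is narrower, with wild-type array 2 near the lowest deletion array, and for GDH1 and GLT1 the steps are smaller still.

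GDH1 and GDH3 code for the NADPH-dependent glutamate dehydrogenases, a pair of isoenzymes that arose by gene duplication; GDH3 is known to be expressed more when glucose gives way to ethanol as the carbon source. The GDH3 probe set read 907.5, 840.3 and 988.3 on deletion arrays 1, 2 and 3, against 649.0, 669.0 and 589.3 on wild-type arrays 1, 2 and 3 (linear intensity). The lowest deletion array was above the highest wild-type array. GDH3 rose by 0.52 (SE 0.08, 95% interval 0.33 to 0.71, limma adjusted p = 0.00909), which is 1.43-fold. Its change was larger in size than that of 94.5% of all genes. The call was lost when deletion array 1 and wild-type array 3, the outermost arrays along the first principal component, were both left out (change 0.47, adjusted p = 0.0651).

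GDH1, the main isoenzyme during growth on glucose, read 29597, 30245 and 30041 on the deletion arrays and 28189, 28354 and 28469 on the wild-type arrays. These readings are close to the highest intensity of the table, 37181, and the arrays of the groups did not overlap. The change was 0.08 (95% interval -0.005 to 0.17, adjusted p = 0.149) and was not called. Replicates of GDH1 were close together, with a SD of 0.016 in the deletion and 0.0072 in wild-type on the log2 scale. GDH1 was called, at the same change, with limma's robust prior that follows intensity (adjusted p = 0.0339) and with no moderation of the variance (adjusted p = 0.0221).

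The changes of GDH1 and GDH3 were compared within arrays. The log2 ratio of GDH1 over GDH3 was 0.44 lower in the deletion than in wild-type. Relative to the wild-type mean of that ratio the deletion arrays lay between -0.55 and -0.31, and the wild-type arrays between -0.07 and 0.11. An exact two-sided permutation test over the arrays gave p = 0.1, the smallest that 3 arrays against 3 allow, and an adjusted p = 0.15 over the 6 ratios compared. Both probe sets are of the type designed for a single gene, but their probe sequences were not used here, and binding of transcripts of the paralog was not tested. GDH1 read close to the highest intensity of the table, and the effect of that on its change was not tested.

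GLT1 codes for glutamate synthase and GLN1 for glutamine synthetase, which form the other route from ammonium to glutamate. The GLT1 probe set read 10866, 11156 and 10976 on deletion arrays and 10280, 10313 and 10220 on wild-type arrays. Each deletion array was above each wild-type array, by a small step. The change was 0.10 (SE 0.04, 95% interval 0.013 to 0.18) and was not called (adjusted p = 0.0937). GLT1 was called with the same robust prior (adjusted p = 0.0480), which makes 5 called genes of the 9 in place of 3, and without moderation (adjusted p = 0.0199).

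GLN1 read 23369, 24031 and 23328 on deletion arrays and 22869, 22488 and 23855 on wild-type arrays, with wild-type array 3 above 2 of the 3 deletion arrays. The change was 0.03 (95% interval -0.07 to 0.13, adjusted p = 0.61), an interval that in fold runs from 0.953 to 1.10. It ranged from 0.013 without wild-type array 2 to 0.056 without wild-type array 3. The log2 ratio of GLN1 over GLT1 was 0.07 lower in the deletion, and that of GDH1 over GLT1 0.018 lower, each without overlap between groups (exact permutation p = 0.1 each, adjusted p = 0.15). Without wild-type array 3 these differences were -0.039 and -0.0115.

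GDH2, the NAD-dependent dehydrogenase that releases ammonium from glutamate, read 2531.5, 2559.2 and 2535.7 on deletion arrays. On wild-type arrays it read 2420.6, 2295.6 and 2550.2, so wild-type array 3 lay within the range of the deletion arrays. The change was 0.07 (95% interval -0.05 to 0.19, adjusted p = 0.33); it was 0.033 without wild-type array 2 and 0.11 without wild-type array 3. The ratio of GDH1 over GDH2, the synthetic over the degradative enzyme gene, differed by 0.0093 on the log2 scale (exact permutation p = 0.7, adjusted p = 0.84). That difference was 0.048 without wild-type array 2 and -0.025 without wild-type array 3, so its sign rests on single arrays.

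**Figure D2:**
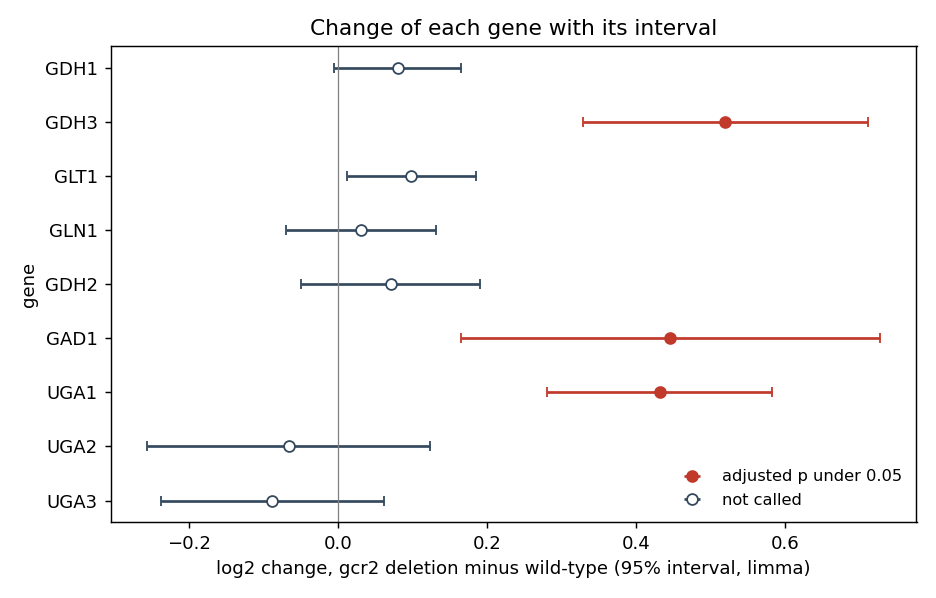
Log2 change of each gene, gcr2 deletion minus wild-type, with its 95% interval from limma (horizontal axis), for the 9 genes (vertical axis). Filled points passed an adjusted p of 0.05; the intervals of GDH3, GAD1 and UGA1 lie above 0 and GLT1's just above it, from 0.013.

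GAD1, glutamate decarboxylase, starts the GABA route and is known for its part in tolerance of oxidative stress. It read 1208.1, 983.1 and 1018.6 on deletion arrays, against 735.3, 898.9 and 724.0 on wild-type arrays. The groups did not overlap, although wild-type array 2 came near the lowest deletion array and deletion array 1 stood above the other two. GAD1 rose by 0.45 (SE 0.12, 95% interval 0.17 to 0.73, limma adjusted p = 0.0399). It had the widest interval of the 9 genes. The call was lost in 10 of 17 alternatives: without deletion array 1, 2 or 3 the adjusted p was 0.103, 0.0712 and 0.104, and without wild-type array 1 or 3 it was 0.102 and 0.0933. Without wild-type array 2 it was 0.0238, with a change of 0.55.

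UGA1 codes for GABA transaminase, which passes the amino group of GABA to 2-oxoglutarate and so yields glutamate. Its readings were 3399.9, 3520.5 and 3512.3 on deletion arrays and 2549.1, 2791.6 and 2408.5 on wild-type arrays. Every deletion array was well above the highest wild-type array. UGA1 rose by 0.43 (SE 0.06, 95% interval 0.28 to 0.58, limma adjusted p = 0.00792), the smallest adjusted p of the 9 genes. It was called in all 17 alternatives, with a limma adjusted p between 0.00188 and 0.0475 outside poly-A centring. Poly-A centring raises every gene by 0.88, and averaging probe sets does not alter a gene with 1 probe set. Neither could test the call of a gene that rose.

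UGA2, succinate semialdehyde dehydrogenase, carries out the step after UGA1. It read 821.3, 902.1 and 829.7 on deletion arrays and 829.3, 985.2 and 862.8 on wild-type arrays, and the groups overlapped. The change was -0.07 (95% interval -0.26 to 0.12, adjusted p = 0.571), and 0.0075 without wild-type array 2, which had the highest reading. The log2 ratio of UGA2 over UGA1 was 0.50 lower in the deletion than in wild-type, with deletion arrays at -0.55 to -0.43 and wild-type arrays at -0.09 to 0.05 around the wild-type mean (exact permutation p = 0.1, the smallest possible; adjusted p = 0.15). The ratio of UGA1 over GAD1 differed by -0.0145, with overlapping groups (exact permutation p = 0.9, adjusted p = 0.9), and ran from -0.08 without deletion array 2 to 0.09 without deletion array 1.

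UGA3 codes for the zinc-cluster activator through which GABA induces UGA1, UGA2 and the permease gene UGA4. The UGA3 probe set read 2041.7, 1889.6 and 2011.2 on deletion arrays and 2144.5, 1960.4 and 2215.3 on wild-type arrays. The groups overlapped, and the change was -0.09 (95% interval -0.24 to 0.06, adjusted p = 0.333). It was -0.14 without wild-type array 2, -0.051 without wild-type array 3 and -0.054 without deletion array 2. UGA3 lies next to GLT1 in assembly R64, with 0 annotated genes between them; neither was called, at -0.09 for UGA3 and 0.10 for GLT1.

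UGA4, the GABA permease gene, is outside the 9 genes and was singled out after its values were seen. It averaged 9.29 ± 0.04 in the deletion and 8.94 ± 0.10 in wild-type (log2 intensity, SD, n = 3 each), and rose by 0.35 (adjusted p = 0.0143). The call was lost in 5 of 17 alternatives, among them those without deletion array 1 (adjusted p = 0.0578) and without deletion array 3 (adjusted p = 0.0688). Among the genes of GABA uptake and use, UGA4 and UGA1 were called and UGA2 was not.

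**Figure D3:**
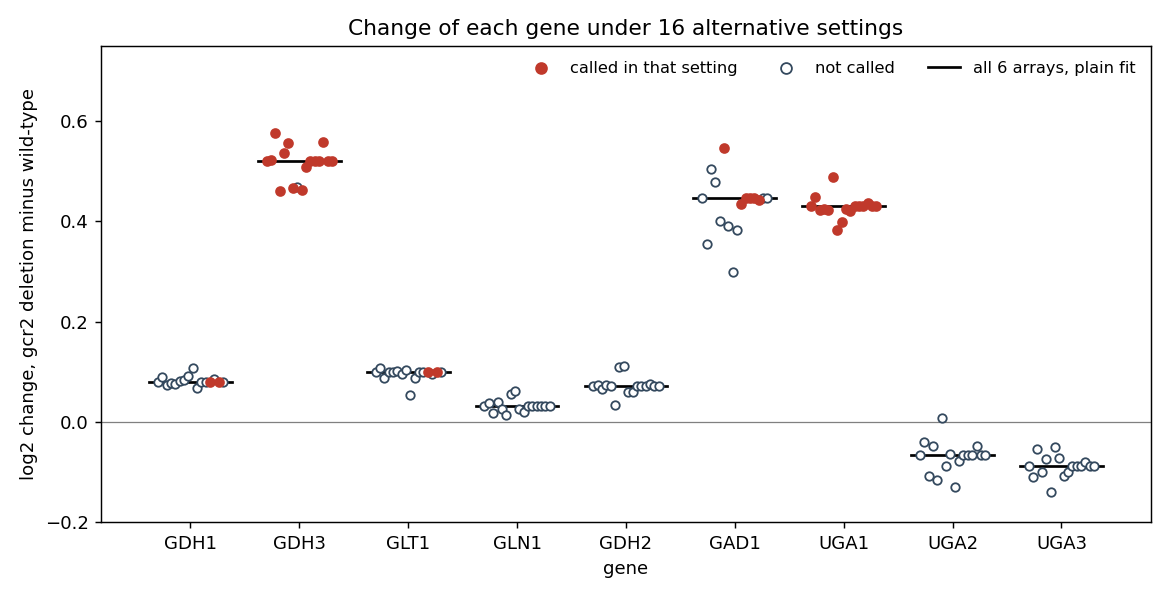
Log2 change of each gene, gcr2 deletion minus wild-type (vertical axis), under 16 alternative settings (points, centring on poly-A controls not shown) and with all 6 arrays in the plain fit (line), for the 9 genes (horizontal axis). Filled points were called in that setting; UGA1 is filled in all 16, while GAD1 is mostly open and spans 0.30 to 0.55.

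By the root mean square difference of profiles over the 6 arrays, each set to its wild-type mean, the nearest of the other 5448 genes to UGA1 were NTH1, MET1 and CAT2. Their differences from UGA1 were 0.020, 0.024 and 0.027, and their changes 0.44, 0.42 and 0.42. NTH1 codes for neutral trehalase, MET1 for an enzyme of siroheme synthesis and CAT2 for carnitine acetyltransferase. The nearest genes to GDH3 were ASK10, PRM4 and YER010C, at differences of 0.045, 0.047 and 0.053 and with changes of 0.50, 0.48 and 0.52. Genes chosen by this distance have changes near that of UGA1 or GDH3 by construction, and the distances describe 6 arrays only.

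Genes around the glutamate and glutamine core were described by 7 lists with 77 measured genes. Of these 15 rose, 12 fell and 50 missed the threshold (35.1% called, against 22.5% of all genes). The lists were chosen with earlier results of these data known, so the difference between these shares is not a test. The median change over these 77 genes was 0.04. The number called was 13, 14 and 14 without deletion arrays 1, 2 and 3, and 17 without wild-type array 1. With arrays centred on the poly-A controls 67 of the 77 were called higher and 2 lower.

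Among 13 measured genes for the supply and use of 2-oxoglutarate, the carbon skeleton of glutamate, 2 rose, 0 fell and 11 missed the threshold (15.4% called, against 22.5% of all genes). Their changes ran from -0.29 to 0.25, with a median of 0.04. CIT1, mitochondrial citrate synthase, rose by 0.25 (adjusted p = 0.0206) and KGD2, a subunit of 2-oxoglutarate dehydrogenase, by 0.21 (adjusted p = 0.0229). ACO1, aconitase, differed by -0.15 (adjusted p = 0.0545). CIT1 and KGD2 each lost the call without any 1 of the deletion arrays and without wild-type array 1.

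Aminotransferases, which move the amino group of glutamate to other carbon skeletons, went both ways. Among 10 genes, 2 rose and 2 fell, 6 missed the threshold (40% called, against 22.5% of all genes), and the median was 0.06. ALT1, the main alanine transaminase, averaged 12.02 ± 0.03 in the deletion and 12.43 ± 0.06 in wild-type (log2 intensity) and fell by 0.41 (adjusted p = 0.00371). Its paralog ALT2 rose by 0.20 (adjusted p = 0.0225). That call did not hold in 9 of 17 alternatives, which include leaving out each deletion array and wild-type array 1. ARO9, an aromatic aminotransferase, rose by 0.64 (adjusted p = 0.00427); in wild-type it exceeded background on 2 arrays. For succinate dehydrogenase, which receives the succinate of the GABA route, 4 genes were measured. Of these 2 rose, 1 fell and 1 missed the threshold (75% called, against 22.5% of all genes). SDH2 and SDH3 rose by 0.22 and 0.20, and SDH1 fell by 0.17 (adjusted p = 0.0300, 0.0368 and 0.0449). Each of these 3 calls was lost in 9 of 17 alternatives, among them those without each deletion array and without wild-type array 1; poly-A centring also turned the sign of SDH1.

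**Figure D4:**
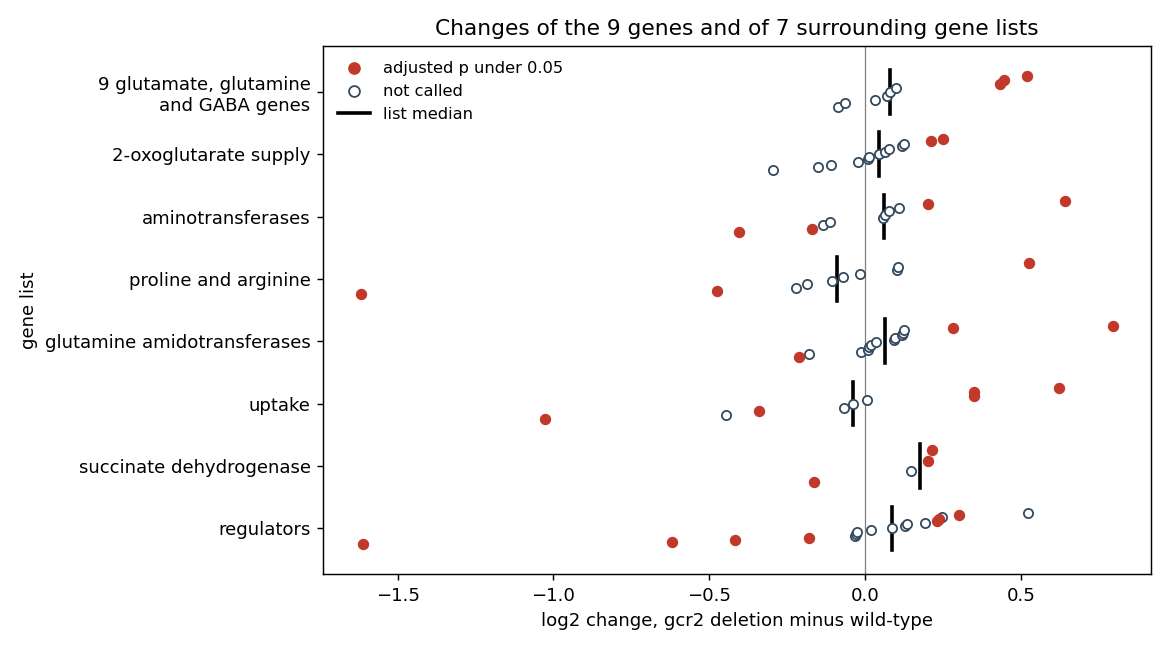
Log2 change, gcr2 deletion minus wild-type (horizontal axis), of the 9 genes and of each measured gene of 7 surrounding lists (vertical axis). Filled points passed an adjusted p of 0.05 and the bar is the list median; PUT1 and DAL80, at -1.62 and -1.61, lie farther out than any of the 9 genes.

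Among genes that link glutamate with proline and arginine, 10 were measured. Of these 1 rose, 2 fell and 7 missed the threshold (30% called, against 22.5% of all genes), and the median was -0.09. PRO1, glutamate 5-kinase, the entry into proline synthesis, rose by 0.53 (adjusted p = 0.00147). PUT1, proline oxidase, which starts the return from proline, fell by 1.62, and CAR2, ornithine transaminase, fell by 0.48 (adjusted p = 0.000133 and 0.00957). PUT2, which completes that return to glutamate, differed by -0.11 and was not called (adjusted p = 0.0948); it was named after its values were seen.

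Of 14 measured enzymes that take the amide nitrogen of glutamine, 2 rose, 1 fell and 11 missed the threshold. That is 21.4% called, near the 22.5% of all genes, and their median was 0.06. The 3 called genes belong to pyrimidine synthesis. URA8, a minor CTP synthase, averaged 12.11 ± 0.0046 in the deletion and 11.31 ± 0.06 in wild-type and rose by 0.80 (log2 scale, adjusted p = 0.000381). URA7, the major CTP synthase, fell by 0.21 (adjusted p = 0.0253), and URA2, which starts the pathway, rose by 0.28 (adjusted p = 0.0150). URA7 lost its call without each deletion array and without wild-type array 1, and URA2 without each deletion array.

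Of 9 uptake genes for ammonium, glutamate, GABA and other amino acids, 3 rose and 2 fell, while 4 missed the threshold. That is 55.6% called, against 22.5% of all genes, and the median was -0.04. GAP1, the general amino acid permease gene, fell by 0.34, and PUT4, the proline permease gene, by 1.03 (adjusted p = 0.00455 and 0.0055). With poly-A centring PUT4 differed by -0.15 and was not called (adjusted p = 0.625). AGP1, a broad amino acid permease gene, rose by 0.62 (adjusted p = 0.00541). UGA4, above, and MEP1, an ammonium permease gene that rose by 0.35 (adjusted p = 0.00719), were the other genes called higher; MEP1 was named after its values were seen, and lost its call without both deletion array 1 and wild-type array 3 (adjusted p = 0.0603).

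Of 17 regulators of the 9 genes or of their carbon and nitrogen supply, 3 rose and 4 fell, while 10 missed the threshold. That is 41.2% called, against 22.5% of all genes, and the median was 0.08. DAL80, a GATA repressor of genes for poor nitrogen sources, fell by 1.61, GAT1, a GATA activator, by 0.42, and HAP4, the activating subunit of the Hap complex, by 0.62 (adjusted p = 0.000224, 0.00957 and 0.0135). DAL81, an activator that acts with Uga3 on the GABA genes, rose by 0.24 (adjusted p = 0.0205), and GLN3, the other GATA activator, fell by 0.18 (adjusted p = 0.0303); both were named after their values were seen. The other subunits of the Hap complex were higher in the deletion: HAP2 rose by 0.30 (adjusted p = 0.0343), and HAP3 and HAP5 differed by 0.52 and 0.25 without passing the test (adjusted p = 0.0505 and 0.0513). LEU3, which regulates branched-chain amino acid genes and GDH1, rose by 0.23 (adjusted p = 0.0261). HAP2, HAP3, HAP5 and LEU3 were also named after their values were seen. The call was lost in 5 of 17 alternatives for DAL81, in 8 for HAP2, in 9 for LEU3 and in 9 for GLN3, beside the poly-A centring that turned the sign of GLN3. For HAP2 and LEU3 these include leaving out each deletion array and wild-type array 1, and for LEU3 also wild-type array 2. DAL81 lost its call without each deletion array, and GLN3 on leaving out any single array of either group. HAP3 and HAP5 were called in 8 and 5 of the 17. Both counts include poly-A centring, which raises every gene by 0.88 and so could not test a call of a higher gene.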

How the data were processed

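The authors deposited 1 table of probe-set intensities on a linear scale, from 9.14 to 37181; R 2.8.0 with affy and RMA made them, per the submitters' processing notes. RMA gives all arrays the same distribution of single-probe values before it sums them up by probe set, so only relative changes remain. The probe-set values analysed here need not share 1 distribution. Quantile normalization over the tested genes moved the median change from 0.0241 to 2e-04. It called 1055 genes in place of 1224, and GAD1 lost its call (limma adjusted p = 0.0505). Log2 was taken here with no pseudocount. The platform annotation gave 7244 of 10928 probe sets exactly 1 gene; 5498 matched RefSeq assembly R64, used for names and neighbours, and the brightest probe set per gene left 5449 genes. The other 1746, of another species, set the background. Groups were compared with limma 3.58.1 (lmFit, eBayes, two-sided, Benjamini-Hochberg) in R 4.3.3. A check on simulated data drew independent noise from limma's own variance model. That check holds no deviations shared by the genes of an array, so it does not vouch for the p-values given here. Precision is set by having 3 arrays a group, with a median 95% interval of 0.15 to either side on the log2 scale. A bound on GCR2 uses each array's background in place of lower values. Ratios within arrays were tested by exact permutation (20 splits).

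Members, lists and tests were chosen with earlier results of these data known. Genes named by rule are the 9, GCR2, the 3 with the smallest adjusted p of each list, and 3 nearest in profile to the 2 members with the smallest adjusted p; UGA4, MEP1, PUT2, DAL81, GLN3, LEU3, HAP2, HAP3 and HAP5 were added after their values were seen. Of the list genes, 3 were not analysed here. The 17 alternatives covered a replicate block, arrays left out, scaling, probe-set choice, priors, weights and threshold. Promoter motifs were not searched.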

Additional observations from a re-analysis of the deposited data

How the results depend on the processing

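UGA1 kept its call and direction in all 17 alternatives, GDH3 in 16 and GAD1 in 7. These counts include poly-A centring and averaged probe sets, which could not test the call of a risen gene with 1 probe set. Of the 9 genes 1 was called without both deletion array 1 and wild-type array 3, 5 with the intensity trend and robust prior, and 9 with poly-A centring, which moved the median over all genes up by 0.88, to 0.90; leaving out 1 array gave 2 to 3. Of the 77 genes around them 13, 69 and 12 were called without both arrays, with poly-A centring and at an adjusted p under 0.01, and 13 to 26 with 1 array left out, against 27. Of all genes 328, 4952 (99.8% higher, against 62.8%) and 347 were called in these 3 settings, and 406 to 1225 with 1 array left out, against 1224. UGA2 ranged from -0.1167 to 0.0075 with 1 array left out, and was above 0 without wild-type array 2. With poly-A centring UGA2 turned to 0.81, UGA3 to 0.79, ACO1 to 0.73, ALT1 to 0.47, CAR2 to 0.40, URA7 to 0.66, GAP1 to 0.54, SDH1 to 0.71, GAT1 to 0.46, HAP4 to 0.26, PUT2 to 0.77 and GLN3 to 0.70, by construction, since the same 0.88 is added to every gene. The cause of the other changes was not tested. Same-numbered arrays deviated from their group means with correlations of -0.44 to 0.53 across genes. Of 3 deletion arrays 1 correlated best with its own number. Deletion array 2 correlated best with wild-type array 3 (0.58), and deletion array 3 with wild-type array 2 (0.49). Deviations of 3 arrays from their own mean sum to 0, so these correlations cannot decide whether arrays were paired. With the replicate block 733 genes in all were called, 2 of the 9 (GAD1 was lost, adjusted p = 0.0905) and 18 of the 77. With 3 arrays a group, a change under about 0.15 is mostly within the interval of a gene.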
